A study of Caenorhabditis elegans with 2 samples.

Results

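The genes described here are those of the chromatin modifiers and remodellers of Caenorhabditis elegans, taken as the protein-coding genes named set-, met-, mes-, jmjd-, hda-, swsn-, isw- or hpl- followed by a number in the Ensembl annotation of WBcel235. The rule gave 64 of 19973 protein-coding genes. By the known nature of their products they comprise 35 genes of SET-domain methyltransferases (set-, met-, mes-2 and mes-4), 2 genes of partners in Polycomb repressive complex PRC2 (mes-3 and mes-6), 8 demethylase genes of the JmjC family (jmjd-), 8 histone deacetylase genes (hda-), 8 remodeller genes (swsn- and isw-1) and 2 genes of HP1-type readers (hpl-1 and hpl-2). The remaining gene, mes-1, matched by name only: it encodes a receptor tyrosine kinase-like protein. Membership of a family is by name and does not show that each protein has the enzyme activity.

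Binding of RNT-1, the RUNX-type transcription factor of the worm, was measured near these genes by chromatin immunoprecipitation and sequencing with an antibody against GFP. There were 2 biological replicates in 1 group, both from strain OP462, which has the unc-119(tm4063) allele on chromosome III and the insertion wgIs462, a stable transgene for RNT-1 with GFP and FLAG at its C-terminus. The animals were whole L1 hermaphrodites, starved at the L1 stage after bleaching and collected 6 h after that synchronization, and the strain is 1 transgenic line. No control library and no other condition was analysed here, so the comparisons are between genes and between replicates; signal from whole animals cannot be assigned to cells.

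Chromatin modifiers add or remove small groups on histone tails. SET-domain enzymes methylate lysines, JmjC-domain enzymes take methyl groups off, and deacetylases remove acetyl groups. Remodellers such as SWI/SNF and ISWI use ATP to move nucleosomes, and HP1 proteins bind methylated H3K9. In the worm these factors are known for their parts in germline identity, dosage compensation, vulval and neuronal fate, stress responses and lifespan. RUNX factors bind DNA with the partner CBF-beta (BRO-1 in the worm) at a short sequence of the TGTGGT type.

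Of the 64 genes, 28 (43.8%) had an RNT-1 peak with its summit within 2 kb of an annotated transcript start, against 25.3% of all protein-coding genes. A peak is a region of the authors' list that passed their reproducibility threshold (irreproducible discovery rate, IDR); the 5560 peaks are also the 5560 strongest regions of the 30000 candidates called on the pooled replicates. The strongest peaks stood upstream of hda-11, the MLL-type methyltransferase gene set-16 and the SET1-type methyltransferase gene set-2. A peak among the 1112 strongest of the list was near 13 of the 64 genes (20.3%), against 8.07% of all protein-coding genes. The weakest peak kept by the authors had a signal of 71.56 and the strongest candidate left out 71.54, in units the sources do not name. Over the 33 peaks near the 64 genes the median pooled signal was 234, against 182 over the 4309 peaks near any protein-coding start. The difference was smaller when counted by gene. The median of the strongest pooled signal was 251 over the 28 genes with a peak, against 235 over all 5056 protein-coding genes with a peak. Over the 21 peaks that lay nearest to the start of the gene they were counted for, the median pooled signal was 199. Genes are not replicates and no test was run between lists of genes, so these shares describe this set of peaks.

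Where a peak was given only to the gene with the nearest start, 19 of the 64 genes (29.7%) kept one, against 17.1% of all protein-coding genes. The 9 genes without one under that rule were hda-1, jmjd-1.2, set-1, set-16, set-21, set-26, set-3, set-5 and swsn-6, whose peaks all lay closer to the start of another gene. Candidate regions, which include background, were near 49 of the 64 genes (76.6%) in the pooled list, against 65.2% of all protein-coding genes. In the list of replicate 1 they were near 51 genes (79.7%, against 65.2% of all) and in that of replicate 2 near 50 (78.1%, against 67.2% of all).

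**Figure D1:**
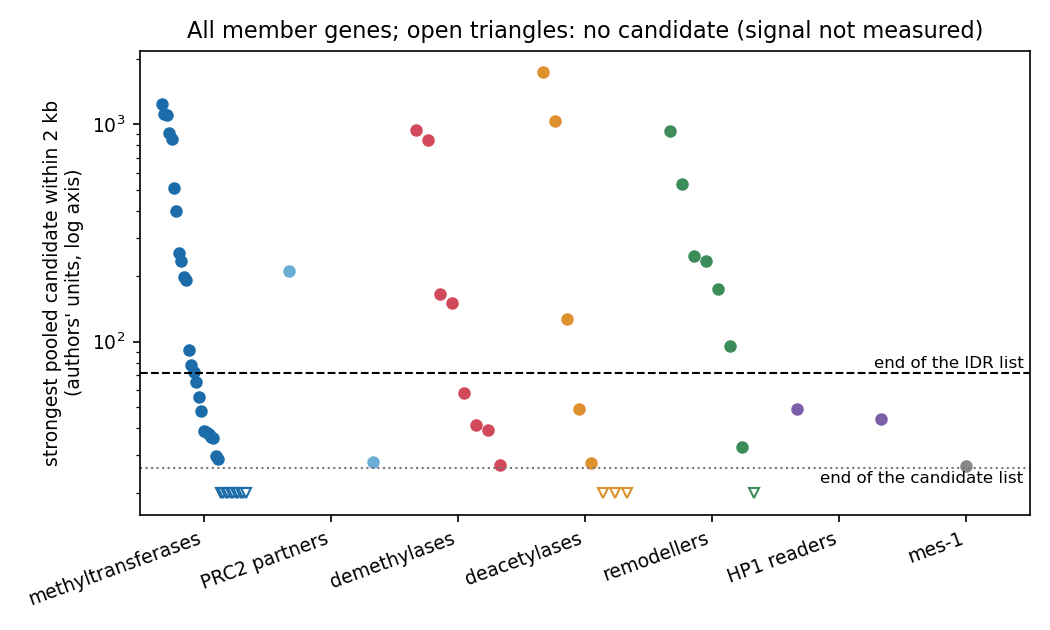
Signal of the strongest pooled candidate within 2 kb of a start (log axis, authors' units) for each of the 64 genes, by class. Filled points are genes with a candidate, open triangles the 15 genes with none, drawn below the end of the candidate list because no signal was measured; 28 genes lie above the dashed line at 71.56 that ends the IDR list.

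The sequences below are the 101 bases around the summits of 6 strong peaks near these genes, shown because they are the places of highest signal. They are from the RefSeq copy of WBcel235, read 5′ to 3′ on the strand of the named gene. Capitals mark matches on either strand to the forms of the RUNX sequence searched here, which are TGTGGT with its variant TGCGGT, and CGTGGT with its variant CGCGGT. All 5 matches shown are on the strand opposite to the named gene, so the printed capitals are the reverse complement of the form. The peak of hda-6, also stronger than those of jmjd-4 and swsn-3, is not shown because its window touches an untranslated region. The windows are chrV:10526061-10526161 for hda-11, chrIII:13643683-13643783 for set-16, chrIII:4930425-4930525 for set-2, chrIV:4390610-4390710 for set-21, chrIII:10334093-10334193 for jmjd-4 and chrIII:2768785-2768885 for swsn-3.
hda-11: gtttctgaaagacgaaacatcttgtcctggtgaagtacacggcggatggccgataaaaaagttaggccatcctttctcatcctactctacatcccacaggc
set-16: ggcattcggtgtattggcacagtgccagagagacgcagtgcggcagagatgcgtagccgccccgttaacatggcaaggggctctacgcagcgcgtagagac
set-2: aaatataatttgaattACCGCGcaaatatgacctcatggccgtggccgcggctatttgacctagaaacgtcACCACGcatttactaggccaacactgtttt
set-21: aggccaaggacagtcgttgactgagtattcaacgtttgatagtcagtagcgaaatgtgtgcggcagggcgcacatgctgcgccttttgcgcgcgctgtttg
jmjd-4: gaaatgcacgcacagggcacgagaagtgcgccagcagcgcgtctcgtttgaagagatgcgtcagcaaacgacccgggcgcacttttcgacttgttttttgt
swsn-3: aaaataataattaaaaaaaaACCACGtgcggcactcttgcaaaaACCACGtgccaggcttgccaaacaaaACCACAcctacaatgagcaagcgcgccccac

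The swsn-3 window held 3 of the searched forms, CGTGGT at bases 21 and 45 and TGTGGT at base 71, counted from the 5′ end of the printed sequence. The set-2 window held 2, CGCGGT at base 17 and CGTGGT at base 72. The windows of hda-11, set-16, set-21 and jmjd-4 held none of these letters, although the peaks of hda-11 and set-16 are the strongest near any of the 64 genes. Over all 33 peaks near these genes, 8 windows (24.2%) held a form, against 17.9% of the 4309 peaks within 2 kb of any protein-coding start. The direction turned with the width of the window: the shares were 9.09% against 10.4% with 25 bp to each side of the summit and 24.2% against 27.3% with 100 bp, in place of 50 bp. TGTGGT itself was in 3 windows (9.09%, against 5.71% of all), TGCGGT in 1 (3.03%, against 4.8%), CGTGGT in 2 (6.06%, against 4.57%) and CGCGGT in 4 (12.1%, against 4.53%). Windows with a form were those of set-2, swsn-3, set-4, set-26, isw-1, set-20, hda-1 and set-3. Among the 1112 strongest peaks 4 of 13 windows (30.8%) held one, against 21.1% of all such peaks, and among the weaker peaks 4 of 20 (20%), against 17%. The median share of G and C in the windows was 48.5%, against 46.5% over all 4309. A match is a stretch of letters and was not tested as a binding site.

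Among the methyltransferase genes, 14 of 35 (40%) had a peak, against 25.3% of all protein-coding genes. The strongest were near set-16 and set-2, genes of H3K4 methylation, followed closely by that near set-21 (pooled signals 1236, 1118 and 1099). At set-16, which encodes the MLL-type enzyme, replicates 1 and 2 gave 616 and 630 (623 ± 9.92, SD, n = 2) at chrIII:13643624-13643848. That summit lay in intergenic sequence 183 bp upstream of set-16 and 163 bp upstream of drr-2, so it cannot be given to 1 of the 2 genes. At set-2, the catalytic subunit of the SET1/COMPASS complex, they gave 586 and 533 (560 ± 38, SD, n = 2) at chrIII:4930368-4930576, 271 bp upstream of its start and nearer to it than to any other. Both genes were high in both replicates. By contrast set-17, which methylates H3K4 in the germline, had its strongest candidate 59 bp upstream of a start at a pooled signal of 64.9, just under the end of the IDR list, with 34.1 and 34.3 in the replicates.

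The genes for methylation of H4K20 both had peaks. At set-4, the homologue of Suv4-20, replicates 1 and 2 gave 521 and 394 (458 ± 89.4, SD, n = 2) at chrII:6331511-6331714, 277 bp upstream, with no other protein-coding start within 2 kb. At set-1, the homologue of PR-SET7 known for its part in dosage compensation of X, they gave 230 and 171 (200 ± 41.6, SD, n = 2) at chrIII:6453812-6453937. The set-1 summit was 1489 bp upstream of set-1 and 616 bp upstream of jhdm-1, a homologue of the JHDM1 demethylases. Thus the set-4 peak has a single candidate gene within 2 kb and the set-1 peak has 2.

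The PRC2 genes for H3K27 methylation differed. At mes-2, the E(z) homologue and catalytic subunit, replicates 1 and 2 gave 215 and 292 (253 ± 54.8, SD, n = 2) at chrII:14383762-14383913, 134 bp upstream of the only start within 2 kb. At mes-6, the ESC homologue, they gave 111 and 95.3 (103 ± 11, SD, n = 2) 43 bp upstream of the start, and a weaker second peak lay 556 bp upstream (57.4 and 30.8), nearer to tag-77. The third subunit gene, mes-3, had no peak, and its strongest candidate had a pooled signal of 28.

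Of the genes for H3K36 methylation, met-1, the homologue of Set2, gave 160 and 97.6 in replicates 1 and 2 (129 ± 44.2, SD, n = 2). Its summit was 122 bp upstream of a start of met-1 and inside an intron of the overlapping gene C43E11.12, and relative to their mean the replicates differed there by more than at the strongest peak of each gene above (coefficient of variation 34.3%). At set-18, an H3K36 methyltransferase of the SMYD family, the stronger of 2 peaks lay in an intron 960 bp downstream of a start (83.9 and 113) and the weaker 20 bp upstream (61.6 and 33.2). The replicates put those 2 peaks closer together in replicate 1 than in replicate 2. At mes-4, the NSD-type enzyme of the germline, no peak was found; the pooled candidate 114 bp upstream had a signal of 55.8, and it was matched only in replicate 2 (51.5).

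Genes linked to H3K9 methylation include met-2, set-32, set-25 and set-6, and among these named ones set-6 had a peak. For met-2, the SETDB1-type enzyme, the strongest pooled candidate had a signal of 37.5, and for set-32 one of 38.2. For set-25, the enzyme of H3K9 trimethylation, no pooled candidate was listed, and the strongest in the replicates had 14.8 and 16.8, close to the ends of those lists (14.8 and 15.5). Only 47.1% of the 31-base sequences within 2 kb of the set-25 start occur once in the genome, the lowest share of the 64 genes, and the part of this in the missing candidate was not tested. The peak of set-6 was the weakest of all near the 64 genes, 242 bp upstream at a pooled signal of 72.7, with 57.3 and 23.1 in replicates 1 and 2 (40.2 ± 24.2, SD, n = 2). Of the 32 peaks near these genes that were matched in both replicates, it was the only 1 to differ more than 2-fold between them. Of all 4115 such peaks near protein-coding starts, 317 did.

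The remaining methyltransferase genes with a peak were set-21, set-26, set-5, set-20, set-30 and set-3. At set-21 replicates 1 and 2 gave 537 and 569 (553 ± 22.8, SD, n = 2) 184 bp upstream, but the start of the ribosomal protein gene rpl-7A was nearer, at 70 bp, and 83.3% of the 31-base sequences in the region were unique. At set-26, known for its part in lifespan and germline function, they gave 448 and 420 (434 ± 19.2, SD, n = 2) 551 bp upstream, and tsr-2 was nearer, at 179 bp. Its close paralogue set-9 had no pooled candidate and only 1 region of 18.6 in replicate 2; 61.2% of 31-base sequences around the set-9 start and 65.6% around that of set-26 were unique. At set-5 they gave 122 and 112, 1916 bp upstream and 396 bp from unc-112, a gene of muscle attachment. At set-20 they gave 87.7 and 118, 115 bp upstream with no other start near. At set-30 they gave 48.6 and 42.6 at the stronger of 2 peaks, and at set-3 41.8 and 32.7 at a peak 213 bp from the splicing gene bud-31. Of these 6 genes, set-20 and set-30 had a peak for which their own start was the nearest.

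The other methyltransferase genes fell into 2 groups. A pooled candidate below the IDR list was found for 10 of them, from set-17 (64.9) and mes-4 (55.8) through set-14 (47.9), set-10 (38.8), set-32, met-2, set-22 (36.4), set-31 (36.1) and set-12 (29.7) to set-11 (28.7). For 11 none was listed: set-8, set-9, set-13, set-15, set-19, set-23, set-24, set-25, set-27, set-28 and set-29. Candidate lists hold a fixed number of regions, the weakest in the pooled list having a signal of 26.1, so a gene without a candidate has no measured value and not a measured 0.

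Demethylase genes had a peak at 4 of 8 (50%), against 25.3% of all protein-coding genes. Every one of the 8 had at least a pooled candidate, against 65.2% of all. In each replicate list it was 7 of 8 (87.5%, against 65.2% of all in replicate 1 and 67.2% in replicate 2). The gene without one there was jmjd-1.1, whose pooled candidate (27.1) was close to the end of the pooled list (26.1). At jmjd-4 replicates 1 and 2 gave 492 and 459 (476 ± 23.9, SD, n = 2) at chrIII:10334051-10334233, 125 bp upstream of the start, and a second peak in its coding sequence 590 bp downstream gave 45.7 and 33.9. At jmjd-1.2, a PHF8-type demethylase gene of the mitochondrial stress response, they gave 489 and 380 (434 ± 76.8, SD, n = 2) at chrIV:4660383-4660617, 496 bp upstream, with F29B9.11 nearer at 294 bp. These peaks were among the 1112 strongest in pooled signal (945 and 846), well above the other 2.

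The other 2 demethylase genes with a peak had theirs farther upstream. At jmjd-2, a KDM4-type gene for H3K9 and H3K36, replicates 1 and 2 gave 120 and 69 (94.3 ± 35.8, SD, n = 2) 1110 bp upstream, and at jmjd-3.1, an H3K27 demethylase gene, 71.9 and 79.5 (75.7 ± 5.43, SD, n = 2) 1653 bp upstream. In both cases no other protein-coding start lay within 2 kb. With starts within 1 kb only, jmjd-2 and jmjd-3.1 had no peak. That left 2 of 8 demethylase genes (25%, against 18.7% of all protein-coding genes). The genes without a peak had pooled candidates of 58 (jmjd-3.2), 41.2 (jmjd-5), 39.1 (jmjd-3.3) and 27.1 (jmjd-1.1). The summit of the jmjd-3.2 candidate, 1259 bp downstream, was held by a region of 24.2 in replicate 1 and by none in replicate 2. Replicate 2 had a region of 28.6 with its summit 1393 bp downstream.

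Deacetylase genes had a peak at 3 of 8 (37.5%, against 25.3% of all protein-coding genes), among them the strongest of all 64 genes. At hda-11, which encodes the HDAC11 homologue, replicates 1 and 2 gave 930 and 814 (872 ± 81.5, SD, n = 2) at chrV:10526009-10526235, 73 bp upstream of its start. That peak ranked 51 of 5560 in pooled signal (1744). At hda-6, the HDAC6 homologue, they gave 576 and 471 (523 ± 73.7, SD, n = 2) at chrIV:5364228-5364426, 25 bp upstream. In both cases the gene's own start was the nearest, although another start lay within 2 kb.

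At hda-1, the class I deacetylase of the NuRD complex, the peak was much weaker, with 55.5 and 81.6 in replicates 1 and 2 (68.6 ± 18.5, SD, n = 2). It lay in a noncoding exon 982 bp upstream, and the start of ril-1 was nearer, at 278 bp. The other class I genes had no peak: hda-2 had a pooled candidate of 27.6 and hda-3 none in any list. hda-4, the class IIa gene, had a candidate of 49, with 26.5 and 19.6 in the replicates (23 ± 4.86, SD, n = 2), and hda-5 and hda-10 had no pooled candidate.

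Remodeller genes had a peak at 6 of 8 (75%), against 25.3% of all protein-coding genes. At swsn-3, an accessory SWI/SNF subunit homologous to BAF57, replicates 1 and 2 gave 478 and 454 (466 ± 16.9, SD, n = 2) at chrIII:2768736-2768918, 156 bp upstream of swsn-3 and inside an intron of cox-6B. At swsn-6, an actin-related subunit, they gave 246 and 288 (267 ± 30.3, SD, n = 2) 131 bp upstream, with perm-3 nearer at 98 bp. Both peaks were among the 1112 strongest of the list. At isw-1, the ISWI ATPase gene, they gave 130 and 121 (125 ± 6.23, SD, n = 2) 101 bp upstream of its own start in a narrow region of 73 bp.

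At swsn-4, the ATPase subunit of SWI/SNF, the stronger of 2 peaks gave 111 and 136 (123 ± 17.8, SD, n = 2) 632 bp upstream, where spo-11 was nearer at 530 bp. The second lay 258 bp upstream, closest to swsn-4 itself, and had a match in replicate 2 (44) and none in replicate 1. At swsn-7, the ARID2 homologue, replicates 1 and 2 gave 75.2 and 105, and at swsn-9, the BRD7 and BRD9 homologue, 47.2 and 50.6. swsn-2.2, the BAF60 homologue, had a candidate of 32.8. Every remodeller gene with a peak had values in both replicates at its strongest one.

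The core SWI/SNF subunit gene swsn-1 was listed in replicate 1 only. A region at chrV:20249849-20249943, 406 bp upstream of a start, had a signal of 175 there and ranked 1336 of 30000, with all of its 31-base sequences unique. The gene was singled out after its values were seen. Neither the list of replicate 2 nor the pooled list held a region within 2 kb of any swsn-1 start. In replicate 1, 160 of the 5560 strongest regions (2.88%) overlapped no pooled region, and 132 (2.37%) in replicate 2. Of the 64 genes, only swsn-1 had such a region in replicate 1, and none had one in replicate 2.

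The HP1 genes had no peak. hpl-1 had a candidate 22 bp upstream of its start with a pooled signal of 49.1, matched in replicate 1 (47.8) and not in replicate 2. hpl-2 had one of 44.1 at 1990 bp, close to the 2 kb limit, with 19.9 and 16.4 in the replicates. Around hpl-1 77% of 31-base sequences were unique. mes-1, the gene matched by name only, had no peak and a candidate of 26.8.

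**Figure D2:**
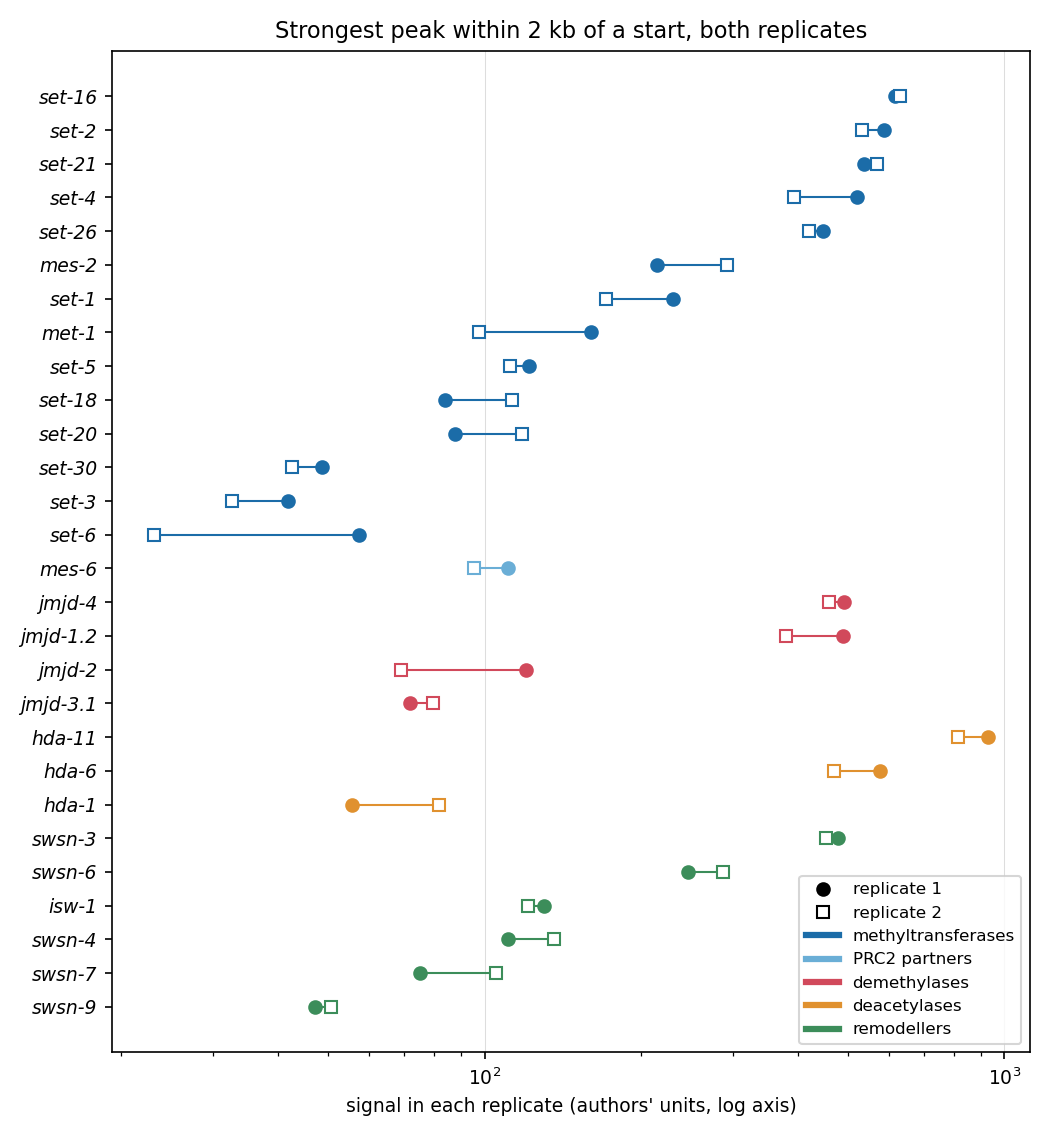
Signal in replicate 1 (filled circles) and replicate 2 (open squares) at the strongest peak of each of the 28 genes with one, on a log axis in the authors' units, coloured by class. Relative to their mean, the markers are closest at set-16 (616 and 630) and farthest apart at set-6 (57.3 and 23.1).

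Between classes, the share of genes with a peak ran from 37.5% of deacetylases (3 of 8, exact Clopper-Pearson 95% interval 8.52 to 75.5%) and 40% of methyltransferases (14 of 35, 23.9 to 57.9%) through 50% of demethylases (4 of 8, 15.7 to 84.3%) to 75% of remodellers (6 of 8, 34.9 to 96.8%). The share of all protein-coding genes was 25.3%. The intervals cover counting error only and treat genes as independent, and the members were chosen with earlier results of these data known. They are therefore no test of any class, the remodellers included, against that share. They overlap for every pair of these 4 classes, so at these numbers of genes no order of the classes can be read. Under the nearest-start rule the counts were 8 of 35 methyltransferases, 3 of 8 demethylases, 2 of 8 deacetylases and 5 of 8 remodellers, against 17.1% of all protein-coding genes. Methyltransferases lost most, 6 of 14 genes, under that rule. Among genes with a peak, the median of the strongest pooled signal was 1039 for the 3 deacetylases, 506 for the 4 demethylases, 326 for the 14 methyltransferases and 241 for the 6 remodellers, Of the 2 PRC2 partners 1 had a peak, and of the 2 readers 0. Within classes the strongest pooled signals ran from 127 to 1744 in deacetylases, from 151 to 945 in demethylases, from 72.7 to 1236 in methyltransferases and from 95 to 933 in remodellers, so the ranges overlap.

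**Figure D3:**
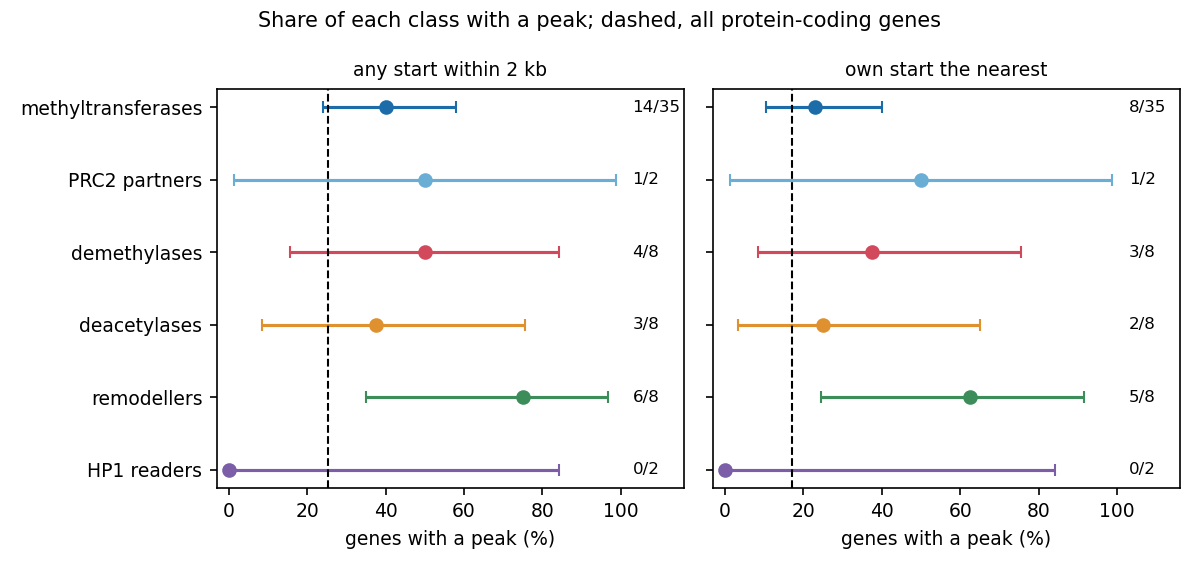
Share of genes with a peak by class (points, %) with exact 95% intervals (bars), for any start within 2 kb on the left and for the nearest start on the right; counts stand at the right of each panel. Dashed lines show all protein-coding genes (25.3% and 17.1%), and the bars of the 4 main classes overlap each other in both panels.

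Replicate values at these genes spread about as much as elsewhere. Of the 33 peaks, 32 were matched in both replicates, the exception being the second peak of swsn-4, and 26 (78.8%) were among the 5560 strongest regions of both replicates, against 77.8% of all 4309 peaks near protein-coding starts. The median coefficient of variation was 15.8%, against 15.3% over all of them, and it was 9.35% among the 1112 strongest peaks and 20.9% among the other ones. It ran from 1.59% at set-16 to 60.2% at set-6. The median ratio of replicate 2 to replicate 1 was 0.925, against 0.895 over all. The direction was not the same at every gene: replicate 2 was lower at hda-11, set-2 and set-4 and higher at mes-2, swsn-7 and hda-1.

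The peaks near these genes were mostly upstream and close to the start. Of 33 peaks, 31 (93.9%) were upstream of the start of the gene they were counted for, against 77.2% of all 6611 pairs of a gene and a peak within 2 kb. The exceptions were the intronic peak of set-18 and the coding-sequence peak of jmjd-4. The swsn-9 peak lay 65 bp upstream of a start of swsn-9 but inside an intron of the same gene. With the 5′ end of the gene record as the only start, 30 of 33 (90.9%) were upstream. The median distance was 258 bp, against 567 bp over all pairs, and 19 peaks (57.6%) were within 300 bp, against 35.9%. Intergenic sequence held 26 of the summits (78.8%, against 60.2% of all 4309 peaks) and introns 5 (15.2%, against 21%). A coding exon held 1, that of jmjd-4 (3.03%, against 3.92%), and a noncoding exon 1, near hda-1 (3.03%, against 8.56%). None lay in an untranslated region, where the shares of all peaks were also low (5.06% in 5′ and 1.11% in 3′ untranslated regions).

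Peaks shared with other genes were common. For 23 of the 33 peaks (69.7%) another protein-coding gene had a start within 2 kb, against 41.3% of all 4309 peaks near starts. The 4309 count each peak once, whereas a peak near several starts has more chances to be counted for 1 of the 64 genes. The 2 shares are therefore not on the same basis, and their difference cannot be read as a trait of these genes. Still, the gene's own start was the nearest in 21 of 33 cases (63.6%), against 65.2% over all pairs. Strong peaks with no other protein-coding start within 2 kb were those of swsn-3, set-4 and mes-2. At the 2 kb limit the farthest peak counted was that of set-5 at 1916 bp, and the nearest not counted were those of set-8 at 2253 bp (254), set-14 at 2368 bp (372), set-31 at 2510 bp (258) and hda-4 at 2530 bp (496), the values in parentheses being pooled signals. Of the 28 genes, 5 had 2 peaks each (17.9%, against 22.1% of all genes with a peak having more than 1): set-18, set-30, mes-6, jmjd-4 and swsn-4.

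**Figure D4:**
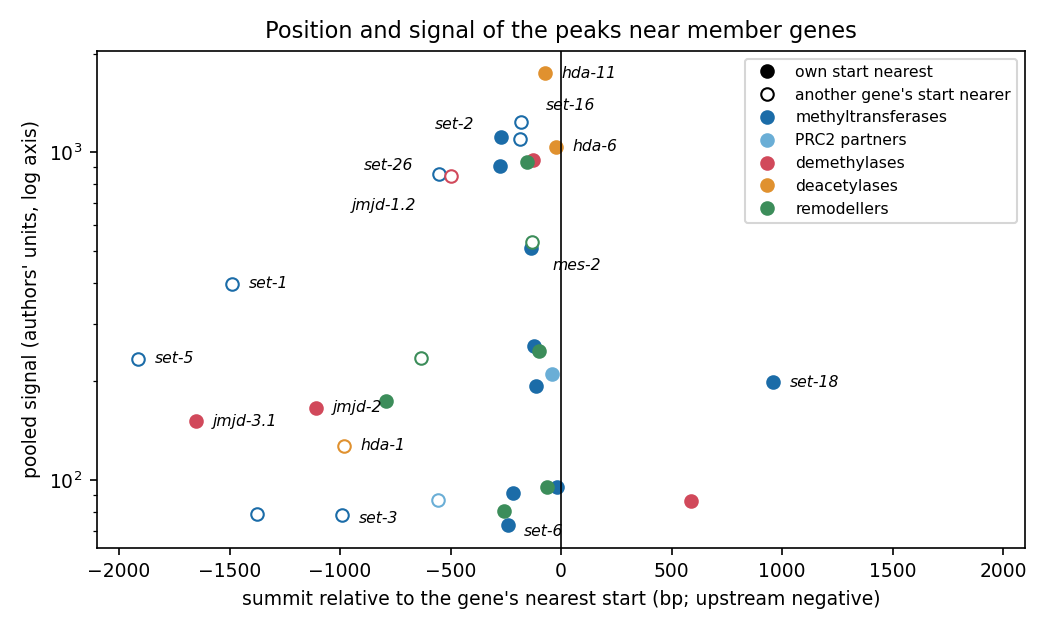
Position of the 33 peaks relative to the nearest start of the gene they are counted for (bp, upstream negative) and pooled signal (log axis, authors' units), coloured by class. Filled points have their own gene's start as the nearest and open points another gene's; 31 of 33 lie upstream and the strongest, at hda-11, is 73 bp from the start.

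Repeated sequence differed with the presence of a candidate. The median share of unique 31-base sequences within 2 kb of the starts was 99.8% for the 28 genes with a peak, 99.8% for the 21 with only a weaker candidate and 86% for the 15 with no pooled candidate, against 99.8%, 99.3% and 97% for all protein-coding genes in the same categories. Its part in the missing candidates was not tested. Of the 15, hda-10, hda-3, set-15, set-23, set-24, set-27, set-28 and set-29 had no candidate in any of the 3 lists. Among genes with at least 95% unique sequence, 25 of 47 (53.2%) had a peak, against 29.1% of all such protein-coding genes.

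Other genes of the same complexes and pathways, listed under names that the rule does not cover, had a peak at 47 of 68 (69.1%), against 25.3% of all protein-coding genes. These genes were chosen with earlier results of these data known, so their share gives no independent support. A further 3 listed names (ino-80, mys-3 and phf-8) matched no gene of the annotation under that name. Where only the nearest start counted it was 36 of 68, against 17.1% of all. With any start within 2 kb, the highest shares were in NuRD and MEC, which remove acetyl groups and move nucleosomes, at 8 of 9 (rba-1, lin-53, mep-1, lin-40, egl-27, dcp-66, chd-3 and mbd-2, but not let-418), and in the ISWI, CHD, INO80 and SRCAP group at 7 of 8 (ruvb-2, chd-7, nurf-1, ruvb-1, chd-1, zhit-1 and pyp-1, but not ssl-1). By the nearest start these were 5 of 9 and 7 of 8. The peak counted for mbd-2 (pooled signal 74.2) lay 1879 bp upstream and was nearer to ari-1.1. The lowest share was in other methyltransferases, at 3 of 8 (dot-1.1, prmt-1 and prmt-5). The groups are small, so no order among them can be read.

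Among those genes the strongest signal was at lin-53, a histone-binding subunit shared by several complexes, where replicates 1 and 2 gave 867 and 781 (824 ± 60.8, SD, n = 2); the same peak is within 2 kb of the paralogue rba-1, and nra-2 is nearer than both. It was followed by cbp-1, the homologue of p300 and CBP, with 678 and 613 (646 ± 45.8, SD, n = 2), and by mys-1, a MYST-type acetyltransferase gene, with 598 and 559 (579 ± 27.4, SD, n = 2). Then came hat-1 (504 and 432) and mrg-1 (452 and 466), and the peak at mrg-1 was nearer to spcs-2. Histone acetyltransferase genes with a peak were cbp-1, mys-1, hat-1, trr-1, epc-1, pcaf-1 and mys-4, 7 of 10, while cbp-2, cbp-3 and mys-2 had none.

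Subunits of the COMPASS complex, in which set-2 works, had a peak at 4 of 7 (rbbp-5, dpy-30, pis-1 and ash-2, but not cfp-1, hcf-1 and wdr-5.1), and 1 of the 7 was the nearest gene to its peak. Demethylases under other names had one at 4 of 5 (rbr-2, lsd-1, amx-1 and utx-1, but not spr-5), Sin3 and CoREST partners at 4 of 5 (mrg-1, rcor-1, spr-1 and sin-3, but not athp-1) and sirtuins at 3 of 4 (sir-2.2, sir-2.1 and sir-2.4). SWI/SNF subunits under other names had one at 3 of 5 (pbrm-1, let-526 and dpff-1), beside 5 of the 7 swsn- genes. Partners of H3K9 methylation and HP1 had one at 4 of 7 (lin-13, cec-4, cec-3 and lin-61).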

How the data were processed

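Regions were read from 4 narrowPeak lists on ce11: the optimal IDR list, the pooled candidates and the candidates of each replicate. Signal is as the authors deposited it. Its scale, the caller and the aligner: not given in the sources used here. Column 9 holds −log10 q values as deposited by the authors (3.07 to 3.97 in the IDR list), which were not tested. Lists on ce10 were not used, and no coordinate was converted. The lists hold no read totals, so depth is unknown and no counting precision could be given. Starts were those of every coding transcript of protein-coding genes in Ensembl release 115 for WBcel235, the sequence of ce11; sequence was read from the RefSeq copy of that assembly. A summit is column 2 plus column 10, given 1-based. A pooled peak was matched to the replicate region that contains its summit. Motifs were sought 50 bp to each side. Sequence uniqueness counted 31-base words on both strands. Placement and matching were tested on simulated data. Python 3.11.15, pandas 2.3.3, numpy 2.4.6, scipy 1.17.1 and matplotlib 3.10.9 were used.

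The members and the lists of related genes were chosen with earlier results of these data known. All genes with a peak were named, with candidates for the rest; of the related genes the 6 strongest get values (5 peaks and the paralogue that shares one). No test was run between gene lists; the alternatives are in the closing section. The labels do not say whether the replicates are separate cultures beyond calling them biological.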

Additional observations from a re-analysis of the deposited data

How the results depend on the processing

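From 1 replicate alone, with as many of its strongest regions as the IDR list holds, 27 to 29 of the 64 genes had a peak. Of all protein-coding genes 24.9 to 25.5% had one. The genes comprised 13 methyltransferases, 4 demethylases, 3 deacetylases and 6 to 7 remodellers, and 45 of 68 related genes (66.2%) had a peak. Candidates were near 50 to 51 genes, against 65.2 to 67.2% of all protein-coding genes. The nearest-start rule left 8 of 35 methyltransferases (22.9%, against 17.1% of all protein-coding genes). Demethylases fell to 2 of 8 (25%) with the peaks above the median signal of 174, with starts within 1 kb and with starts within 500 bp. The shares of all protein-coding genes fell as well, to 16.3%, 18.7% and 14.7%. Related genes fell to 28 of 68 with the peaks above that median (41.2%, against 16.3% of all). Windows with a RUNX form fell to 3 with 25 bp to each side (9.09%, against 10.4% of all peaks near starts) and to 3 with TGTGGT alone; with 100 bp to each side they were 8 (24.2%, against 27.3%), so the higher share near these genes rests on the 50 bp window; the cause was not tested. The count of all 64 genes stayed within 1.5 times of 28 in each setting run, from 19 to 29. Over the same settings the share of all protein-coding genes ran from 14.7 to 29.1%. In each setting of peaks, distance, starts and assignment 13 genes had a peak: hda-11, hda-6, isw-1, jmjd-4, mes-2, mes-6, met-1, set-18, set-2, set-20, set-4, swsn-3 and swsn-4. No paired analysis was possible because both replicates form 1 group. The restriction to regions strong in both replicates left 26 genes (40.6%, against 21.5% of all protein-coding genes). That restriction, the one to unique sequence and the settings for related genes were chosen after seeing the data. Unknown depth, 2 replicates and 8 or fewer genes in most classes limit these values.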

Other observations

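By chromosome, 3 of 9 of the genes had a peak on I, against 32.2% of all protein-coding genes there, 4 of 13 on II (against 24.8%), 7 of 11 on III (against 33.7%), 7 of 10 on IV (against 23.3%), 3 of 8 on V (against 16.9%) and 4 of 13 on X (against 28.4%). On X, set-20, jmjd-3.1, set-30 and set-6 had pooled signals of 193, 151, 91.1 and 72.7.

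At epc-1, a gene of the MYST acetyltransferase complex, a peak with a pooled signal of 398 lay 192 bp upstream, and no region of either replicate list held its summit.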
